A study of Bos taurus with 6 samples.

Results

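The extracellular matrix genes described here were the collagen chains, the laminin chains and a named set of other matrix proteins in primary bovine aortic endothelial cells with and without TGF-beta 1. Members were all genes whose symbol in the array annotation is that of a collagen or laminin chain, together with 40 named matrix genes, of which 33 were found on the array. This gave 58 of 9162 genes: 23 collagen chains, 5 laminin chains and 30 other matrix proteins. AGRN, CCN3, ECM2, FBLN2, FBN2, MATN2 and SMOC1 of the named set, and the chains COL4A2 and COL5A1, were not analysed here.

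Endothelial cells rest on a basement membrane, a sheet of type IV collagen and laminin networks that nidogens and the proteoglycan perlecan tie together. The aortic wall beneath is built of fibrillar collagens, which form tensile cables, and of elastic fibres, in which elastin is deposited on a scaffold of fibrillin microfibrils and fibulins. Matricellular proteins are secreted into this matrix and act on cell adhesion and growth factors rather than bearing load. TGF-beta signals through SMAD transcription factors and is known for raising matrix synthesis in fibroblasts and smooth muscle cells.

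The cells were freed from bovine aorta with collagenase, grown in RPMI medium, and either left untreated (basal, 3 arrays) or given 5 ng/ml TGF-beta 1 for 24 hours (treated, 3 arrays). All arrays held primary cells, with no transgene or other agent named. The labels speak of 3 cultures without saying whether they came from different animals, so p-values measure only the spread between these arrays, which may be technical. RNA was read on an Affymetrix bovine array, and values are log2 expression from RMA, a method that normalizes all arrays to 1 distribution.

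Over the 9162 genes array medians lay between 7.07 and 7.16 log2 and array maxima between 13.91 and 13.99. With 3 arrays a group, precision is limited by their number. Treatment was not the main difference between the arrays. On the first principal component of the 9162 genes, which held 64.5% of the variance, basal 1 (-47.2) and basal 2 (-27.6) lay at one end and TGFB1 1 between (-3.4), while basal 3 (22.7) lay beside TGFB1 2 and TGFB1 3 (27.4 and 28.1). Over the 58 matrix genes alone the order was alike, with basal 1 and basal 2 at -3.99 and -4.24, TGFB1 1 at 0.08, basal 3 at 1.26 and TGFB1 2 and TGFB1 3 at 3.39 and 3.50. Here, however, basal 3 lay nearer to TGFB1 1 than to TGFB1 2 and TGFB1 3. On the second component of these genes (27.1% of the variance) basal 3 (3.21) and TGFB1 1 (-3.59) lay at opposite ends.

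The label was checked against markers. Endothelial markers had a mean over 10 genes of 9.27 to 9.80 log2 on the basal arrays and 8.95 to 9.10 on the treated arrays, with PECAM1 and CDH5 at percentiles 98.2 and 97.8 of all genes but VWF at 33.3 and KDR at 15.1. Of the 10 markers CLDN5 was called and fell by 3.17 log2 (limma adjusted p = 0.0371), and no other was. At an unadjusted limma p under 0.05, 5 markers were lower (CLDN5, PECAM1, ERG, KDR and CDH5) and 0 higher, against 11.4% and 5.99% of all genes. The median difference of the 10 was -0.54 log2, with 8 negative and 2 positive. Fibroblast markers lay below the median of all genes in 8 of 9 cases, with array means of 5.73 to 5.83 log2 in basal and 5.72 to 5.88 in treated cultures. Smooth muscle markers did so in 6 of 8 cases, and their array means ran from 6.41 to 6.51 and from 6.62 to 6.89, the higher treated mean including a rise of TAGLN by 2.19 log2 (limma adjusted p = 0.0188). No other smooth muscle marker was called, and their differences ran from -0.26 log2 (SMTN) to 0.20 (ACTA2). Pericyte markers (3 of 4 below the median) had array means of 5.88 to 6.26 in basal and 5.92 to 6.29 in treated cultures, leukocyte markers (6 of 7) of 5.76 to 6.06 and 5.89 to 6.01, and mesothelial or epithelial markers (5 of 5) of 4.56 to 4.70 and 4.54 to 4.70. What part the lower endothelial marker level, the fall of CLDN5 or the rise of TAGLN had in the results below was not tested. In such bulk RNA, fewer cells of a type and less RNA per cell cannot be told apart.

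Across the matrix genes, COL27A1 alone passed the threshold (limma, Benjamini-Hochberg adjusted p under 0.05 over all 9162 genes), and it rose. That is 1 of 58 higher and 0 of 58 lower, against 0.557% of all genes higher and 1.17% lower. At an unadjusted limma p under 0.05, 10 members were higher (17.2%, against 5.99% of all genes) and 3 were lower (5.17%, against 11.4%). The higher members were COL27A1, COL1A2, COL5A2, COL12A1, COL4A1, COL18A1, LAMA4, FBN1, POSTN and THBS1, and the lower members were COL21A1, VCAN and FBLN5. In 12 members all treated arrays lay above all basal arrays (20.7%, against 8.19% of all genes), and in 4 they lay below (6.90%, against 15.1%). The median log2 difference over the 58 members was 0.04, from -2.59 to 2.22, beside -0.03 over all genes.

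**Figure D1:**
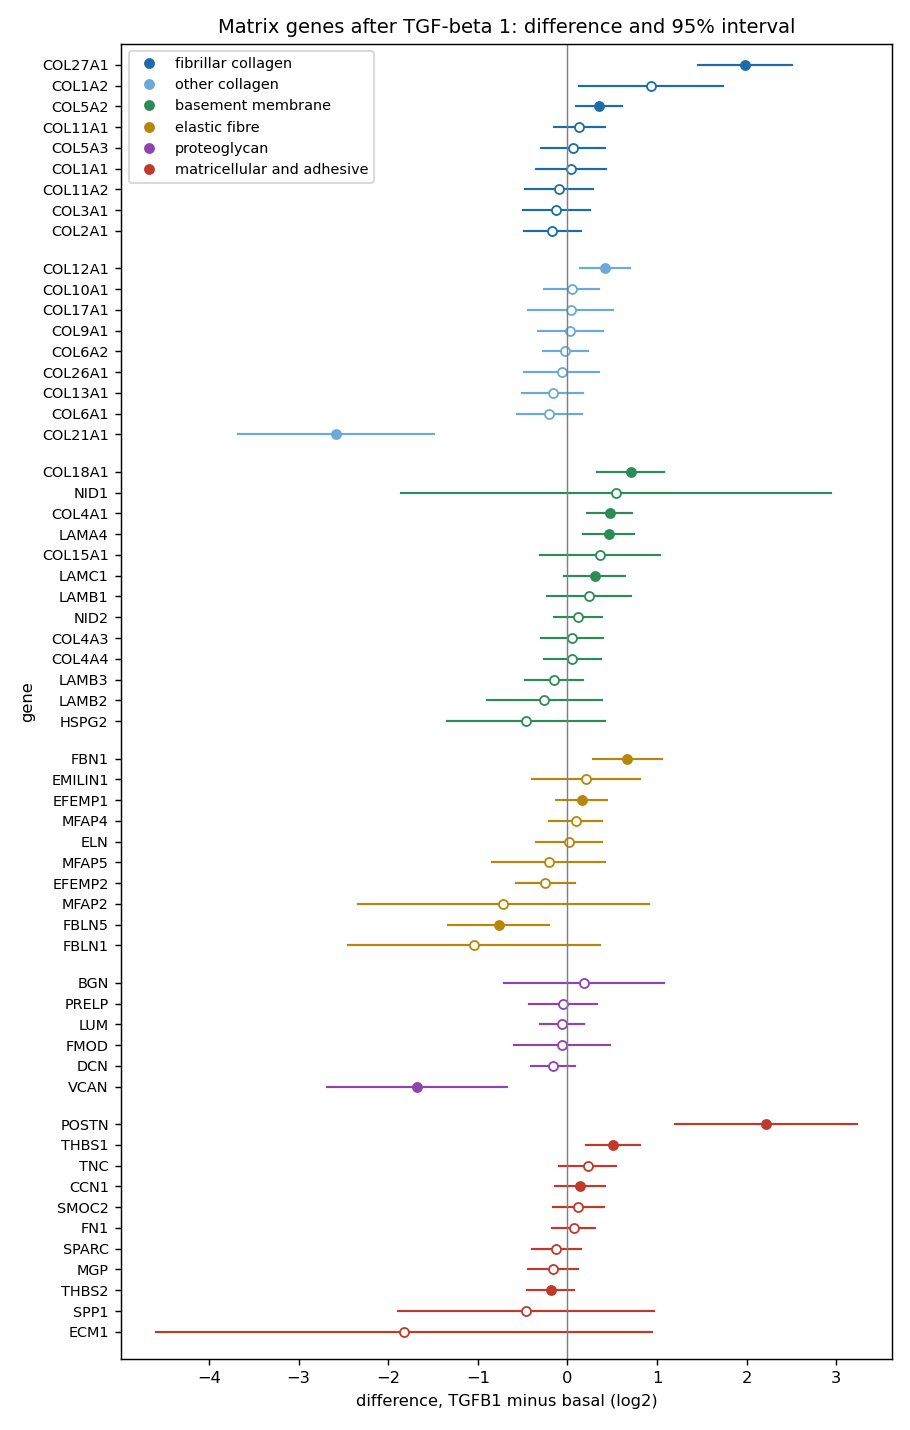
Difference between treated and basal arrays (log2, x axis) for each of the 58 matrix genes (y axis), grouped by class, with the 95% interval of the limma fit as a line. Filled points mark genes without overlap between treated and basal arrays; COL27A1 at 1.98, POSTN at 2.22, COL21A1 at -2.59 and VCAN at -1.68 stand farthest from 0 among them, and most other members lie near 0.

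Fibrillar collagens, whose chains wind into long banded fibres, had 1 of 9 members called, COL27A1, and a class median of 0.06 log2. Of all genes 0.557% were called higher and 1.17% lower. Counted at an unadjusted limma p under 0.05, 3 were higher and 0 lower, against 5.99% and 11.4% of all genes. The product of COL27A1 is a fibrillar collagen best known from cartilage. The COL27A1 probe set (Entrez gene 513668) read 6.87, 6.42 and 7.06 log2 on basal arrays 1 to 3 and 8.57, 9.06 and 8.67 on the treated arrays. All treated arrays lay more than 1 log2 above all basal arrays. The rise was 1.98 log2 (SE 0.22), or 3.95-fold with a 95% interval of 2.75 to 5.68 (limma adjusted p = 0.0260). The call ended without any array other than basal 3, with limma adjusted p of 0.10 without basal 1, 0.130 without basal 2, 0.0653 without TGFB1 1, 0.169 without TGFB1 2 and 0.120 without TGFB1 3, while the difference stayed between 1.80 and 2.12 log2. It also rests on 1 probe set: the second COL27A1 probe set read 6.95, 6.80 and 6.55 in basal and 6.97, 6.75 and 6.71 in treated cultures, a difference of 0.05 log2 (limma adjusted p = 0.923 over all probe sets).

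Both chains of type I collagen, the main cable of the vessel wall, were measured. Their levels come from different probe sets and were not compared as amounts. COL1A2, the alpha 2 chain, read 10.76, 10.65 and 11.33 log2 in basal cultures and 11.19, 12.23 and 12.11 in treated ones. TGFB1 1 lay below basal 3, so the groups overlapped, and the difference of 0.93 log2 (95% interval 0.13 to 1.73) did not pass (limma adjusted p = 0.221). A second COL1A2 probe set gave 0.95. COL1A1, the alpha 1 chain, read 7.40, 7.17 and 6.86 in basal and 7.29, 7.17 and 7.10 in treated cultures, with the treated values inside the basal range. Its difference was 0.04 log2 (-0.35 to 0.43), and its second probe set, at a mean of 4.62, gave 0.07.

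The difference between the changes of COL1A2 and COL1A1 within an array was 0.89 log2 (SD 0.60 in basal and 0.66 in treated arrays, n = 3 each), with a two-sided exact permutation p = 0.2 and an adjusted p = 0.48 over the 8 pairs of chains that can share a trimer. The smallest p that 3 arrays against 3 allow is 0.1. Only LAMA4 against LAMC1 reached it among the 8 pairs, with a difference of 0.16 log2 (adjusted p = 0.48 by the exact test). That difference rests on the brightest LAMC1 probe set, which changed by 0.30 log2. LAMC1 probe sets with means of 8.46 to 10.33 changed by 0.62 to 0.74, more than LAMA4 did on either probe set (0.46). The dimmest LAMC1 probe set changed by 0.01. The other pairs were COL4A3 with COL4A4, COL5A2 with COL5A3, COL6A1 with COL6A2, COL11A1 with COL11A2, LAMA4 with LAMB1 and LAMB1 with LAMC1, with exact p-values of 0.3 to 1.

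COL3A1, the type III chain that accompanies type I in distensible tissue, read 10.86, 10.74 and 10.74 log2 in basal and 10.35, 10.79 and 10.81 in treated cultures. TGFB1 1 was the lowest array and the other treated arrays lay within the basal range, with a difference of -0.13 log2 (-0.50 to 0.25). COL5A2, of type V collagen, which nucleates thin fibrils, read 10.22, 10.12 and 9.99 in basal and 10.48, 10.44 and 10.47 in treated cultures. Its groups did not overlap, and the difference was 0.35 log2 (SE 0.11, limma adjusted p = 0.162). The remaining fibrillar chains COL2A1, COL11A1, COL11A2 and COL5A3 stood between -0.17 and 0.13 log2, with means between percentiles 26.6 and 44.2 of all genes. RMA gives no detection call, so levels this low were not shown to be above background.

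Collagens outside the fibrils and the basement membrane had 0 of 9 members called (limma), against 0.557% of all genes called higher and 1.17% lower. The class had 1 higher and 1 lower at an unadjusted limma p under 0.05, against 5.99% and 11.4% of all genes. Its median was -0.02 log2. COL21A1, a fibril-associated chain that vessel walls make, had the largest difference of all 58 genes. It read 7.78, 8.09 and 6.78 log2 in basal cultures and 5.59, 4.30 and 5.00 in treated ones. The groups did not overlap, although basal 3 lay about midway between the other basal arrays and the highest treated array. The difference was -2.59 log2 (SE 0.45), that is 6.01-fold lower (2.82 to 12.8), at a limma adjusted p = 0.0557. Its treated mean of 4.96 log2 may lie at background, which these values cannot show, and the size of the fold rests on that mean. It passed when genes below the 25th percentile were left out (limma adjusted p = 0.0477) and without basal 3 (-2.97 log2, 0.0122), and the highest adjusted p among the alternatives was 0.225.

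COL12A1, another fibril-associated chain that links collagen fibrils to their surroundings, read 12.01, 11.87 and 12.18 log2 in basal and 12.40, 12.45 and 12.45 in treated cultures. The treated arrays were close to each other and all above basal. The difference was 0.42 log2 (SE 0.12, limma adjusted p = 0.141) at percentile 98.5 of the genes. A second COL12A1 probe set, from 8.48, 8.55 and 8.76 to 9.56, 9.45 and 9.53, differed by 0.92 log2 and passed over all probe sets (limma adjusted p = 0.0397), while the dimmest gave 0.43 (limma adjusted p = 0.161). With the mean of its probe sets the gene passed at 0.59 log2 (limma adjusted p = 0.0489).

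The chains of type VI collagen, a beaded microfibril around cells, stood at -0.20 log2 for COL6A1 and -0.02 for COL6A2, and both 95% intervals held 0. COL13A1 and COL17A1, transmembrane collagens, stood at -0.17 and 0.03, COL26A1 at -0.07, COL9A1, a cartilage chain, at 0.03 and COL10A1, of hypertrophic cartilage, at 0.05. Of these 7 chains only COL26A1 had a mean above the median of all genes.

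Basement membrane genes had 0 of 13 members called (limma), against 0.557% of all genes called higher and 1.17% lower. Of its members 3 were higher and 0 lower at an unadjusted limma p under 0.05, against 5.99% and 11.4% of all genes. The class median was 0.24 log2, and 10 of 13 members had a positive difference (76.9%, against 44.4% of all genes). That median was 0.12 without TGFB1 3, 0.13 without basal 1 and 0.14 without basal 2. COL4A1, a chain of the most widespread type IV collagen network, read 11.75, 11.68 and 11.55 log2 in basal and 12.16, 12.15 and 12.09 in treated cultures. The lowest treated array stood well above the highest basal array, and the difference was 0.47 log2 (SE 0.10, limma adjusted p = 0.0890). A second COL4A1 probe set gave 0.63.

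COL18A1, whose C-terminal fragment is endostatin, read 7.80, 7.75 and 7.42 log2 in basal and 8.53, 8.37 and 8.17 in treated cultures. The groups did not overlap, with a difference of 0.70 log2 (SE 0.16, limma adjusted p = 0.0912). LAMA4, the laminin alpha chain typical of endothelium, read 11.50, 11.46 and 11.33 in basal and 12.04, 11.82 and 11.80 in treated cultures. It too kept the groups apart, at 0.46 log2 (SE 0.12, limma adjusted p = 0.117), and its second probe set also gave 0.46.

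LAMC1, the gamma chain shared by most laminins, had 6 probe sets. The brightest read 12.28, 12.19 and 11.95 log2 in basal and 12.62, 12.32 and 12.39 in treated cultures, a difference of 0.30 (limma adjusted p = 0.344). All treated arrays lay above basal by a narrow margin. Of the 5 other probe sets, those with means of 8.46 to 10.33 differed by 0.62 to 0.74 and the dimmest, at 5.81, by 0.01, and none passed. LAMB1, the beta chain, stood at 0.24 log2 with overlapping groups, since basal 3 at 12.21 lay above all treated arrays. NID2, a nidogen that bridges laminin and collagen IV, stood at 0.11 at a level of 12.31 in basal cultures, and COL15A1, a collagen of vascular basement membranes, at 0.37 with TGFB1 1 (10.32) below all basal arrays.

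HSPG2, the gene of perlecan, read 9.92, 9.99 and 8.72 log2 in basal and 9.34, 8.86 and 9.06 in treated cultures. Basal 3 was the lowest of all arrays, and the difference of -0.46 (-1.34 to 0.42) did not pass. LAMB2 stood at -0.26 and LAMB3, an epithelial chain, at -0.15. COL4A3 and COL4A4, known from kidney glomeruli, both stood at 0.05 near percentile 25 of the genes.

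Elastic fibre genes had 0 of 10 members called (limma), against 0.557% of all genes called higher and 1.17% lower. Here 1 member was higher and 1 lower at an unadjusted limma p under 0.05, against 5.99% and 11.4% of all genes. The class median was -0.10 log2. FBN1, the fibrillin of the microfibril scaffold, read 11.07, 10.70 and 11.19 log2 in basal and 11.62, 11.77 and 11.57 in treated cultures. All treated arrays lay above basal, by 0.67 log2 on average (SE 0.16, limma adjusted p = 0.102). FBLN5, a fibulin that directs elastin onto that scaffold, read 11.50, 11.36 and 10.74 in basal and 10.68, 10.36 and 10.27 in treated cultures. It stood lower by a difference of -0.77 log2 (SE 0.23, limma adjusted p = 0.165), with basal 3 only just above TGFB1 1.

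ELN, tropoelastin itself, read 6.52, 6.36 and 6.49 log2 in basal and 6.75, 6.42 and 6.26 in treated cultures, a difference of 0.02 (-0.36 to 0.39). Its second probe set followed the arrays rather than the groups, with 6.89, 6.95 and 5.39 in basal and 6.98, 5.61 and 5.54 in treated cultures, a difference of -0.36. EFEMP2, the fibulin needed for elastin cross-linking, read 7.52, 7.50 and 7.13 in basal and 7.12, 7.16 and 7.13 in treated cultures, where basal 3 matched the treated level (difference -0.25, limma adjusted p = 0.420). EMILIN1, MFAP4 and EFEMP1 stood at 0.20, 0.09 and 0.16 log2, and MFAP5, MFAP2 and FBLN1 at -0.21, -0.71 and -1.04, none past the threshold.

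Proteoglycans had 0 of 6 members called (limma), against 0.557% of all genes called higher and 1.17% lower. With an unadjusted limma p under 0.05, 0 were higher and 1 lower, against 5.99% and 11.4% of all genes. The class median was -0.06 log2. VCAN, versican, a large hyaluronan-binding proteoglycan of the vessel wall, read 9.48, 9.04 and 9.44 log2 in basal and 6.72, 7.87 and 8.33 in treated cultures. All treated arrays lay below basal but spread over 1.60 log2, with TGFB1 1 lowest. The difference was -1.68 (SE 0.41), that is 3.20-fold lower with a 95% interval of 1.60 to 6.41 (limma adjusted p = 0.110). Its other probe sets gave -1.74 and -1.98, and no alternative made it a call (limma adjusted p between 0.0727 and 0.303).

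The small leucine-rich proteoglycans bind collagen fibrils and limit their width. BGN, biglycan, read 11.15, 11.37 and 10.20 log2 in basal and 11.59, 10.84 and 10.83 in treated cultures, with overlapping groups and a difference of 0.18 (-0.71 to 1.07). DCN, decorin, lay between 4.38 and 4.65 and LUM, lumican, between 3.13 and 3.31 on all 6 arrays, at percentiles 11.3 and 0.3 of the genes. Such values leave a level above background unshown. FMOD stood at -0.06 and PRELP at -0.05.

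Matricellular and adhesive genes had 0 of 11 members called (limma), against 0.557% of all genes called higher and 1.17% lower. Among them 2 were higher and 0 lower at an unadjusted limma p under 0.05, against 5.99% and 11.4% of all genes. The class median was 0.07 log2. POSTN, periostin, a secreted partner of collagen and integrins, read 3.95, 3.84 and 4.69 log2 in basal and 7.23, 5.84 and 6.05 in treated cultures. The groups lay more than 1 log2 apart, and TGFB1 1 was the highest array. The difference was 2.22 log2 (SE 0.42), that is 4.65-fold with a 95% interval of 2.29 to 9.41 (limma adjusted p = 0.0669). Its basal level was low (the mean over all arrays stood at percentile 21.0 of the genes), so the fold depends on a value not shown to be above background.

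THBS1, thrombospondin 1, an anti-angiogenic glycoprotein that can activate latent TGF-beta, read 12.76, 12.77 and 13.08 log2 in basal and 13.37, 13.35 and 13.40 in treated cultures on its brightest probe set. All treated arrays lay above basal, by 0.50 log2 (SE 0.12, limma adjusted p = 0.110), with the treated arrays within 1 log2 of the array maximum. A second THBS1 probe set, from 10.76, 11.15 and 11.89 to 12.61, 12.98 and 12.87, differed by 1.55. The 4 other probe sets gave 1.25, 0.57, 0.16 and 0.09, so all 6 were positive, and none passed over all probe sets (limma adjusted p from 0.0874 to 0.804). The size of the THBS1 difference thus depended on the probe set read.

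FN1, fibronectin, the main adhesive protein of the provisional matrix, read 13.47, 13.43 and 13.36 log2 in basal and 13.55, 13.46 and 13.45 in treated cultures. Its groups overlapped at percentile 99.9 of the genes, with a difference of 0.07 (-0.17 to 0.31). SPARC, a collagen-binding matricellular protein, read 12.97, 12.97 and 12.81 in basal and 12.66, 12.86 and 12.86 in treated cultures, a difference of -0.12 (-0.40 to 0.15). CCN1, an integrin ligand, stood at 0.14 near 12.11 in basal cultures, and its treated arrays lay above basal by a margin within its error.

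THBS2, a relative of THBS1, read 10.61, 10.39 and 10.42 log2 in basal and 10.32, 10.28 and 10.27 in treated cultures. Every treated array lay below basal, yet the difference was only -0.19 (limma adjusted p = 0.443). TNC, tenascin C, stood at 0.22, SMOC2 at 0.12 and MGP, an inhibitor of vascular calcification, at -0.16, the last at percentile 11.6 of the genes. SPP1, osteopontin, and ECM1 stood at -0.46 and -1.82 with the wide spread described below.

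**Figure D2:**
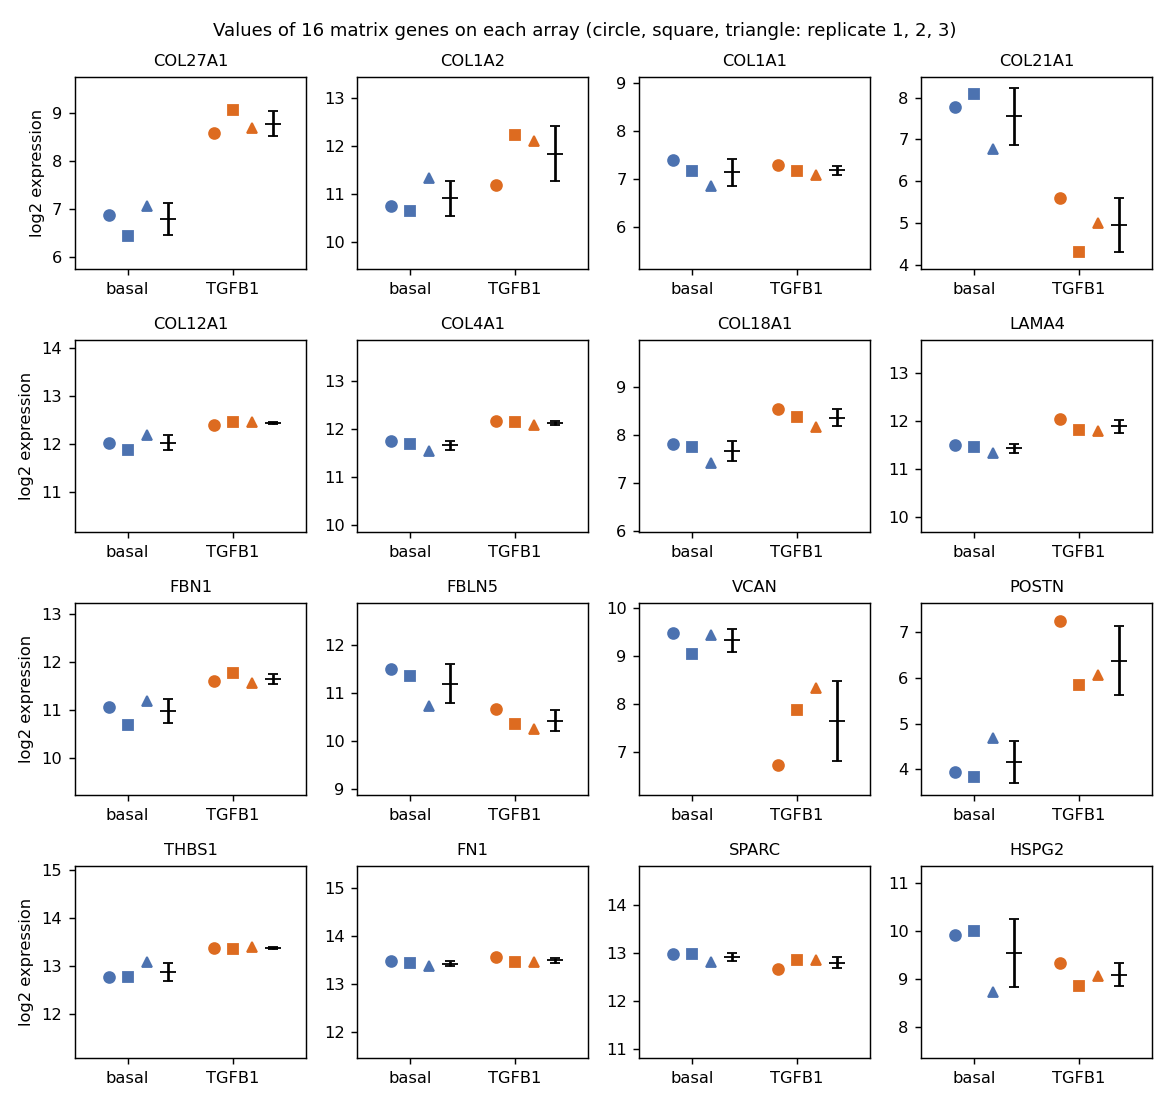
Log2 expression (y axis, at least 4 log2 in each panel) of 16 matrix genes on each basal (blue) and treated (orange) array, with circle, square and triangle for replicates 1, 2 and 3 and the mean ± SD (n = 3) in black. COL27A1 (6.42 to 7.06 against 8.57 to 9.06) and POSTN separate widely upward and COL21A1 and VCAN downward, while the groups overlap for COL1A1, FN1 and SPARC, and HSPG2 has a low basal 3.

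Several results differed between probe sets of a gene. Of the 58 genes 29 had more than 1 probe set, and of the 50 other probe sets 37 had the same sign as the one used and 13 the opposite sign, 0 of those 13 at an unadjusted limma p under 0.05. All probe sets of a gene had the same sign in 19 of the 29. COL1A2, VCAN and COL3A1 gave like values with each probe set, whereas those of COL27A1, COL12A1, LAMC1 and THBS1 spread widely.

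**Figure D3:**
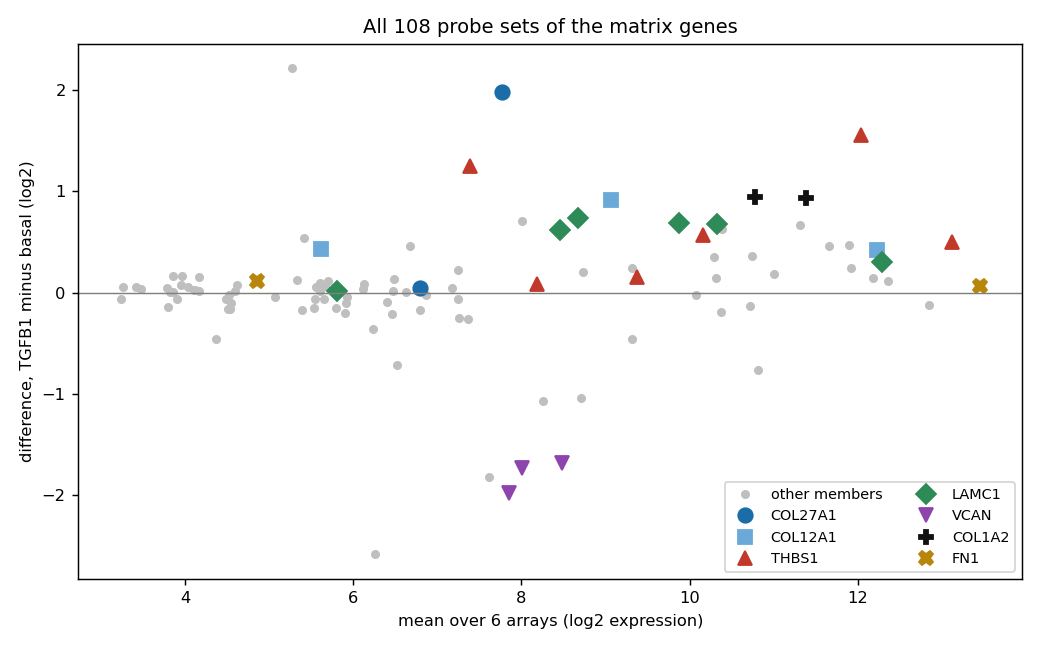
Difference between treated and basal arrays (log2, y axis) against mean level over the 6 arrays (log2, x axis) for each of the 108 probe sets of the matrix genes, with 7 genes marked and all others in grey. The COL27A1 probe sets lie at 1.98 and 0.05, those of THBS1 range from 0.09 to 1.55, and those of VCAN lie together from -1.98 to -1.68.

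Some matrix genes differed more within a group than between groups. The basal arrays spanned more than 1 log2 in 8 members (13.8%, against 17.0% of all genes). ECM1, a secreted glycoprotein that binds perlecan and other matrix proteins, had the widest span, with 9.64, 9.77 and 6.18 log2 in basal and 8.19, 6.27 and 5.67 in treated cultures. Basal 3 lay beside TGFB1 2 and TGFB1 3, more than 3 log2 below the other basal arrays. FBLN1, fibulin 1, read 9.96, 9.57 and 8.17 in basal and 9.09, 7.73 and 7.76 in treated cultures, and on both of its probe sets basal 1, basal 2 and TGFB1 1 were the 3 highest arrays. MFAP2, a microfibril protein, read 7.53, 7.38 and 5.72 in basal and 7.32, 5.57 and 5.60 in treated cultures, so that TGFB1 1 stood with basal 1 and basal 2.

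NID1, nidogen 1, ran the opposite way, with 4.43, 4.04 and 6.94 log2 in basal and 4.08, 6.22 and 6.72 in treated cultures. SPP1 was high on basal 3 alone, at 5.92 against 3.69 to 4.65 on the other arrays. In 7 of these 8 genes basal 3 lay nearer to the treated mean than to the mean of basal 1 and basal 2, COL21A1 being the exception, and among all genes with such a span 94.3% did so. Whatever their span, basal 3 lay nearer to the treated mean in 33 of the 58 members (56.9%) and in 67.8% of all genes. In each of the 8 genes basal 3 was the basal array farthest from the other basal arrays. In SPP1, BGN, HSPG2 and NID1 it lay beyond every other array, treated ones included. BGN, for one, read 10.20 on basal 3 and 10.83 to 11.59 on the other arrays. Lying nearer to the treated mean thus did not always place basal 3 among the treated arrays.

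**Figure D4:**
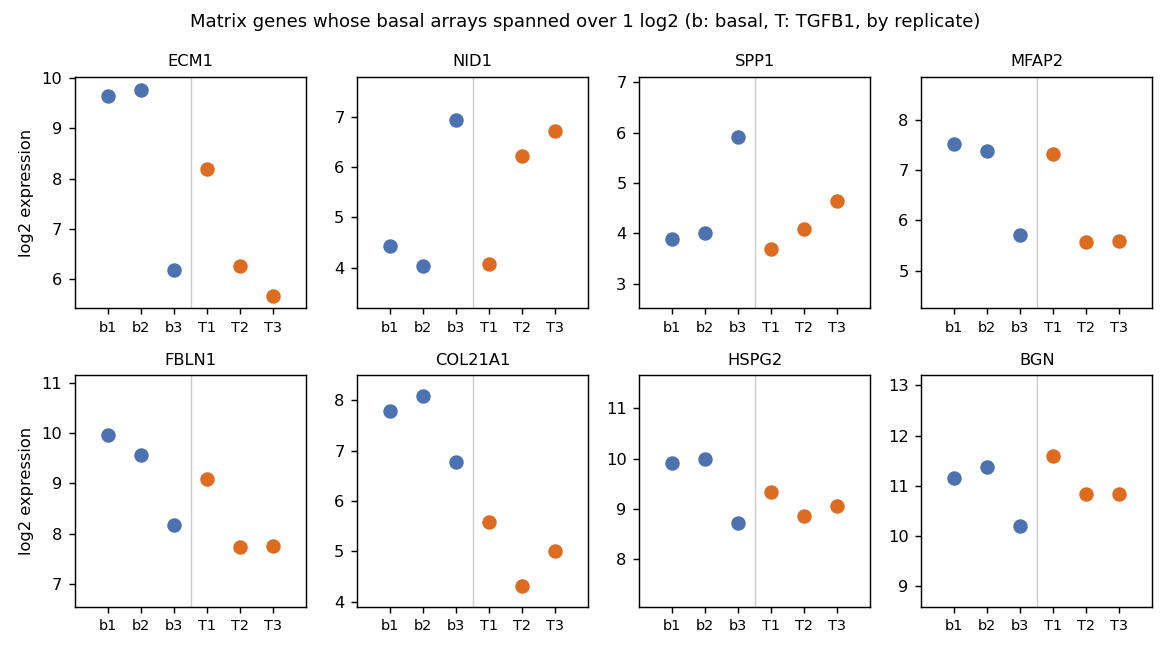
Log2 expression (y axis) on each array (x axis; blue basal, orange treated) of the 8 matrix genes whose basal arrays spanned over 1 log2, ordered by that span. ECM1, FBLN1 and MFAP2 are high on basal 1, basal 2 and TGFB1 1 and low on the rest, NID1 runs the opposite way, and COL21A1 is low on all treated arrays.

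Without basal 3 the count of called members went from 1 to 12 (limma). Then 7 rose, namely COL27A1, COL4A1, COL18A1, COL12A1, FBN1, POSTN and THBS1 (12.1% of members, against 5.69% of all genes), and 5 fell, namely COL21A1, FBLN5, ECM1, HSPG2 and MFAP5 (8.62%, against 11.1%). POSTN then stood at 2.48 log2 (limma adjusted p = 0.0207), FBLN5 at -0.99 (0.0188), FBN1 at 0.77 (0.0294), THBS1 at 0.61 (0.0199), HSPG2 at -0.87 (0.0264) and ECM1 at -3.00 (0.0460). The basal arrays left are then those that lay at the other end of the first component from TGFB1 2 and TGFB1 3, so treatment and that split of the arrays cannot be told apart in this fit. Each of these members had an adjusted p above 0.05 in other fits, with the highest value lying between 0.169 for COL27A1 and 0.973 for MFAP5.

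The genes that make, cross-link and bind collagen were counted from lists chosen with earlier results known. Over all 9162 genes, 0.557% were called higher and 1.17% lower, and 5.99% were higher and 11.4% lower at an unadjusted limma p under 0.05. Among enzymes and chaperones of collagen synthesis 0 of 16 were called (limma), with 4 higher and 1 lower at an unadjusted p under 0.05. PLOD2, a lysyl hydroxylase, stood at 1.84 log2 (SE 0.38, limma adjusted p = 0.0824) and P4HA1, a prolyl hydroxylase subunit, at 1.93 (SE 0.56, 0.155), while SERPINH1, the collagen chaperone, stood at 0.23. PLOD2 read 8.12, 8.75 and 9.64 in basal and 10.87, 10.45 and 10.71 in treated cultures. P4HA1 read 8.21, 8.59 and 10.14 in basal and 10.19, 11.26 and 11.27 in treated cultures, so basal 3 nearly met TGFB1 1. Of 6 genes of processing and cross-linking the lysyl oxidase LOXL4 rose by 5.50 log2 (limma adjusted p = 0.0155), and none was called lower. The size of that rise rests on a basal mean of 5.45 log2, which may lie at background. PCOLCE, which enhances procollagen cleavage, stood at -0.51 (0.218), with all treated arrays below all basal arrays. In this list 1 gene (LOXL4) was higher and 1 (PCOLCE) lower at an unadjusted limma p under 0.05.

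Of 17 matrix receptors the integrin subunit ITGAV rose by 2.01 log2 (limma adjusted p = 0.0441) and none was called lower. At an unadjusted limma p under 0.05, 6 receptors were higher and 2 lower, beside 5.99% and 11.4% of all genes. CD44, the hyaluronan receptor, stood at 0.57 (0.102). Among latent TGF-beta binding proteins, TGFBI and CCN2, which made up 4 measured genes, TGFBI rose by 2.68 (limma adjusted p = 0.0461) and LTBP2 stood at 0.42 (0.360). The size of the TGFBI rise rests on a basal mean of 5.18 log2, which may lie at background. Its treated arrays read 8.81, 7.43 and 7.33. The call of LOXL4 ended without basal 2 (0.111), TGFB1 1 (0.0653) or TGFB1 2 (0.149). Those of ITGAV and TGFBI ended without any array other than basal 3, up to adjusted p of 0.201 and 0.209 without basal 2. Both also ended with adjustment over all probe sets (limma adjusted p = 0.0614 and 0.0662). TGFBI did so with a further quantile normalization (0.0519) and the probe set of largest SD (0.0504). With the replicate block LOXL4, ITGAV and TGFBI stood at limma adjusted p of 0.0672, 0.0928 and 0.0927.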

How the data were processed

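Values are log2 expression per probe set as deposited, and the authors used RMA in affy, per the submitters' processing notes (versions not given). RMA equalizes the distributions of the arrays. Differences near background or near saturation can read smaller than they are. Of 24128 probe sets, 112 control probe sets were left out. Annotation named 1 gene for 13292 probe sets, more than 1 for 86 and no gene for 10638. Each gene was represented by the probe set of highest mean across arrays, giving 9162 genes. By gene identifier, 13263 probe sets were found in RefSeq's table for ARS-UCD2.0, used only for names and gene order.

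Treated and basal arrays were tested in limma 3.58.1 under R 4.3.3 (lmFit with eBayes, group as the only term, no filter on dim genes), with two-sided p-values adjusted by Benjamini-Hochberg over all genes and a threshold of 0.05. Intervals are 95% intervals of that fit. The same fit on all probe sets gave the values of other probe sets. The fit was tested on simulated data. The 8 pairs of chains were compared by an exact permutation test. The matrix genes and all lists were chosen with earlier results of these data known, and the chain pairs after their values were seen. Named in full were each called member, the 3 members of each class with the smallest p and 11 fixed genes, of which COL4A2 was not analysed here, and from each list the 2 genes with the smallest p; genes shown for the spread between arrays or named otherwise were chosen after their values were seen. A planned description of sequences was not made. Alternatives are given at the end. Plots used matplotlib 3.10.9 and Python 3.11.15.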

Additional observations from a re-analysis of the deposited data

How the results depend on the processing

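COL27A1 was the 1 member past the limma threshold, and the count stayed 1 with a further quantile normalization, arrays centred on their medians, limma-trend, robust eBayes, genes above the median and adjustment over all probe sets. It was 2 among genes above the 25th percentile (COL21A1 added), 2 with the mean of all probe sets and 2 with the probe set of largest SD (COL12A1 added in both), 5 at an adjusted p under 0.1 and 0 at 0.01, where 0 of all genes passed too. Leaving out 1 array gave 0 to 12 members and 0 to 1538 of all genes, against 158, with the highest counts without basal 3. Over all genes limma-trend gave 99 calls and an adjusted p under 0.1 gave 433. Of the 547 values of the 31 named genes under the alternatives, 491 kept their direction and side of the threshold, 19 passed newly, 30 lost their call and 7, all of COL1A1, COL3A1 or ELN, changed sign without an unadjusted p under 0.05. The cause was not tested.

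The labels do not say whether basal and treated arrays of the same number share a culture, so the main fit treated them as unpaired. Deviations from the group means correlated at 0.67 for number 1, -0.51 for number 2 and 0.70 for number 3. With 3 arrays a group, such correlations cannot decide whether the arrays are paired. With the replicate block 0 members and 0 of all genes passed (limma), and COL27A1 stood at an adjusted p = 0.0801.

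Among genes above the median, the median log2 difference was 0.16 over 30 members (0.04 over all 58), 0.35 for 5 fibrillar collagens, 0.17 for 2 other collagens and -0.75 for 2 proteoglycans. That alternative leaves out 28 of the 58 members, COL21A1 and POSTN among them. The median of matricellular genes was 0.011 with the mean of all probe sets and 0.12 with the probe set of largest SD. Without 1 array the medians ran from -0.05 to 0.09 over all members, 0.12 to 0.21 for basement membrane, 0.048 to 0.17 for fibrillar collagens, -0.22 to -0.01 for elastic fibres, 0.03 to 0.09 for matricellular genes, -0.13 to 0.03 for other collagens and -0.18 to -0.01 for proteoglycans. Dim members carry no detection call, and bright ones such as FN1 and THBS1 lie near the top of the range, where differences can read too small. Whether that was so for these genes was not tested.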

Other observations

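Some of the matrix genes lie next to each other among the protein-coding genes of the RefSeq table, and their differences need not match. COL5A2 and COL3A1 are such neighbours, with 0.35 and -0.13 log2. SMOC2 and THBS2 stood at 0.12 and -0.19. COL4A4 and COL4A3 both stood at 0.05, COL6A1 and COL6A2 at -0.20 and -0.02, FMOD and PRELP at -0.06 and -0.05, and LUM and DCN at -0.06 and -0.16. None of these 12 genes passed the limma threshold, and no difference within a neighbouring pair was tested, apart from those of COL6A1 with COL6A2 (exact permutation p = 0.3) and COL4A3 with COL4A4 (exact permutation p = 1).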
